A study of Homo sapiens with 12 samples.

Results

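The 10 genes described encode lysosomal proteases and inhibitors of such proteases. They are the cysteine cathepsins CTSL, CTSB, CTSK, CTSS, CTSZ, CTSC and CTSV, the aspartic cathepsin CTSD, and the cystatins CST3 and CSTB. They were listed by symbol, out of 24559 gene symbols in the table, and were chosen by their normalised counts and log2 fold changes in these same libraries. Those levels and changes are therefore given as a description. All 10 had counts and all 10 passed the filter on low counts.

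The study sequenced RNA from pooled polysome fractions, the mRNA bound by several ribosomes, of 3 triple-negative breast cancer cell lines in 12 libraries, 2 for each of 6 groups. In MDA-MB-231 and SUM159, cells with a TRMT112 shRNA (KD) were compared with control cells that the labels call EV and the methods describe as carrying a non-silencing shRNA. In BT549, cells carrying a TRMT112 expression construct (OE) were compared with cells carrying the empty vector (EV). TRMT112 is a cofactor that activates several methyltransferases acting on rRNA, tRNA and protein. The KD cells and their controls carried a puromycin-selected vector, and the BT549 OE and EV cells a G418-selected one. Nothing in the labels says that the 2 libraries of a group came from separate cultures, so errors may measure technical spread. No total RNA was analysed here, so the amount of an mRNA and the share of it on polysomes cannot be told apart, nor can fewer expressing cells and less RNA per cell.

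Library totals lay between 22954226 and 27434677 expected counts. Normalised counts below are TMM-scaled counts per gene, comparable between libraries. TRMT112 itself had 4147 and 3938 normalised counts with EV and 1764 and 1682 with KD in MDA-MB-231 (log2 fold change -1.23 ± 0.04, SE). It was 6332 and 6566 in SUM159 EV against 3909 and 3699 in KD (-0.76 ± 0.04), and 3076 and 3087 in BT549 EV against 4286 and 4319 in OE (0.48 ± 0.04). All 3 directions match the labels. Of the triple-negative markers, PGR was at 0 CPM in 5 of the groups and at 0.248 CPM in BT549 EV, while ERBB2 lay between 61.9 and 126 CPM. Missing values in the MDA-MB-231 and SUM159 libraries were counted as 0. ESR1 was not analysed here.

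Cathepsins are made as inactive precursors, carried to the lysosome by mannose 6-phosphate receptors, and activated there by cleavage in the acid lumen. Cystatins are tight-binding inhibitors of the cysteine cathepsins: cystatin C (CST3) is secreted, and cystatin B (CSTB) stays in the cytosol. In breast tumours, secreted or surface-bound cathepsins B and L are known to degrade matrix proteins. CTSD, an aspartic protease, is not a target of cystatins.

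CTSL and CTSV are paralogs on the same arm of chromosome 9. CTSL lies at chr9:87724051-87731469 on the plus strand and CTSV at chr9:97029677-97156556 on the minus strand (GRCh38). CTSK (chr1:150794880-150809577) and CTSS (chr1:150730079-150765957) lie near each other on chromosome 1, CTSC (chr11:88265069-88359684) and CTSD (chr11:1752752-1764573) lie on chromosome 11, and CTSZ (chr20:58985686-59008238) and CST3 (chr20:23626706-23638473) on chromosome 20. CSTB lies at chr21:43772511-43776330, and these 7 genes are all on the minus strand. RefSeq promoter windows, 250 bases before to 50 after the annotated start, were at hand for 6 of the 10 genes (CTSL, CTSZ, CTSC, CTSV, CTSD and CST3). The pair is printed because these closely related genes share a stretch of promoter letters, while the TPM of CTSL was above that of CTSV in every library. The capitals mark the longest run of identical bases in both windows, 23 bases long, which holds the CCAAT box letters. It starts at position -96 in CTSL (chr9:87725869-87726168, plus strand) and at -86 in CTSV (chr9:97039093-97039392, minus strand), counting the first transcribed base as 0. No other promoter of the 35116 in the table holds this run on either strand.
CTSL: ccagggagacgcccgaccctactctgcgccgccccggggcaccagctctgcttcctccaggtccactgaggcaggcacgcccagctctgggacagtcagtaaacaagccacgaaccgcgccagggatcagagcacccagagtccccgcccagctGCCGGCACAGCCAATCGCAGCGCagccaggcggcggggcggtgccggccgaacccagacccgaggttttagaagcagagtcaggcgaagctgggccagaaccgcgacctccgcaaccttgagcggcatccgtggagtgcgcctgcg
CTSV: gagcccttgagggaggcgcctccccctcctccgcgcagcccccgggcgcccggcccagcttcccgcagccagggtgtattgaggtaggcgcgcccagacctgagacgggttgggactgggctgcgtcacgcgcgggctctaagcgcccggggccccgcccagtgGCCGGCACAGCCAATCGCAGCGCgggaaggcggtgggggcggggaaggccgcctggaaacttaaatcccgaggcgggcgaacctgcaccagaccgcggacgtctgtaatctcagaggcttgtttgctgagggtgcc

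Motif letters were searched on both strands. CCAAT was in the windows of CTSL, CTSC and CTSV, 3 of 6, and in 34.6% of all windows. The GC box letters GGGCGG were in all 6 of the available windows and in 44.95% of all windows. The E-box CACGTG, which reads the same on both strands and is the core letters bound by the MiT factors TFEB, TFE3 and MITF, was in the CTSD window alone of the 6, and in 7.26% of all windows. CTSD is printed for that reason, with the E-box in capitals at positions -47 to -42 of chr11:1763878-1764177 on the minus strand. A match of letters is a description of the window and not a binding site.
CTSD: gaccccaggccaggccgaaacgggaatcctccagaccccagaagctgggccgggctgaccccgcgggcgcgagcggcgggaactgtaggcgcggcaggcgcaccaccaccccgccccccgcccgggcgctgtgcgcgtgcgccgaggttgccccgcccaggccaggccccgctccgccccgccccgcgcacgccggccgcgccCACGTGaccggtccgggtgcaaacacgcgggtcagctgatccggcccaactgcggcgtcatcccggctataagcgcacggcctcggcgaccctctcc

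Levels of the 10 genes were first compared across lines. In the deposited counts, BT549 EV stood far above the other lines for CTSB and CTSL. BT549 also differed from the other lines in base medium, vector and selection. Only the MDA-MB-231 and SUM159 columns carry missing values, and TMM factors were 0.895 to 0.916 in BT549 against 1.01 to 1.117 there. The part of these in the gaps between lines was not tested. CTSB, a cysteine protease with both endopeptidase and exopeptidase activity, was at 563397 and 568862 normalised counts in BT549 EV, at 9165 and 9080 in SUM159 EV and at 3951 and 4033 in MDA-MB-231 EV. The BT549 EV mean was 142 times the MDA-MB-231 EV mean and 62.1 times the SUM159 EV mean. CTSL, an endopeptidase, was at 133407 and 131646 in BT549 EV, at 1111 and 1131 in SUM159 EV and at 996 and 1043 in MDA-MB-231 EV, so that BT549 EV stood 118-fold above SUM159 EV.

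On the per-length scale, in TPM (counts divided by transcript length and scaled to a fixed library total), CTSB ranked 1 of all gene symbols in BT549 EV at 18006 ± 214 TPM (SD, n = 2), and CTSL ranked 8 at 5576 ± 23.02 TPM. CTSB alone took 2.11% and 2.13% of all counts in the BT549 EV libraries, against 0.0184% and 0.0188% in MDA-MB-231 EV. All 10 genes together took 2.91% and 2.92% in BT549 EV, 0.216% and 0.212% in SUM159 EV and 0.106% and 0.107% in MDA-MB-231 EV.

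In the other lines a different gene led. CTSZ, a carboxypeptidase, had the highest TPM of the 10 in MDA-MB-231 EV (351.0 ± 0.205) and in SUM159 EV (604 ± 25.9, SD, n = 2). In SUM159 EV it did not stand clear of CTSD (594 ± 9.88), whose 2 libraries (601 and 587) fell within the CTSZ range. In normalised counts not divided by length, CTSD came first in SUM159 EV. The low end was shared by CTSV, CTSK and CTSS in every group. CTSV, a close relative of CTSL with narrow tissue expression, was at 11.04 TPM in MDA-MB-231 EV, 1.52 in SUM159 EV and 11.1 in BT549 EV. CTSK, the collagenase of osteoclasts, and CTSS, the cathepsin of antigen-presenting cells, had means between 0.123 and 3.31 TPM in all 6 groups.

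**Figure D1:**
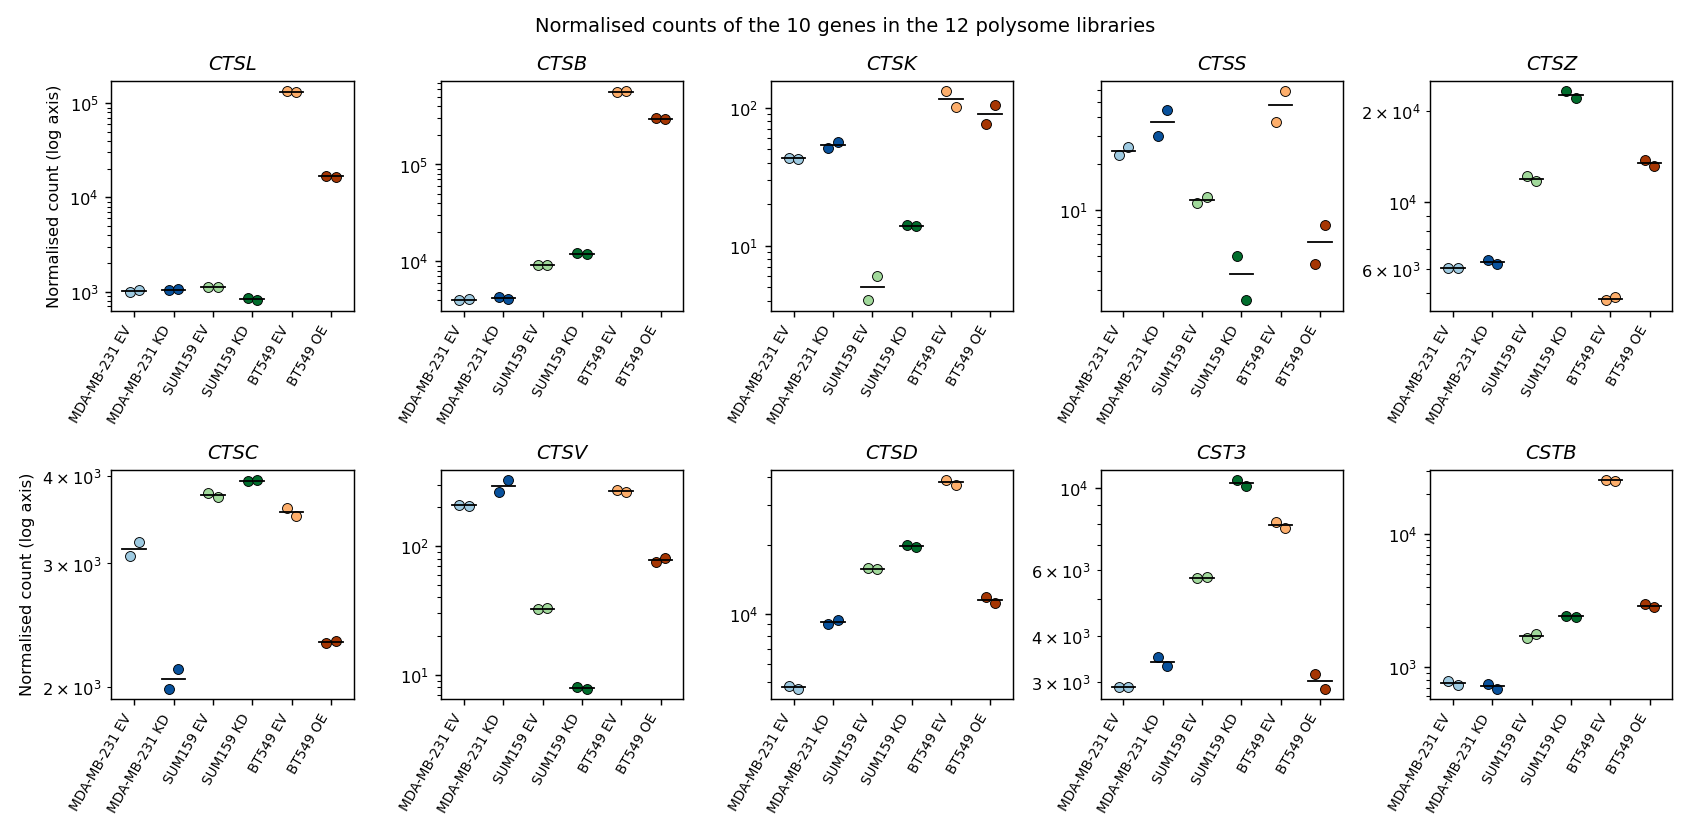
Normalised counts (log axes, a scale of its own for each gene) of the 10 genes in each of the 12 libraries, by group. Points are libraries and the line is the mean of 2. CTSL stands at 133407 and 131646 in the BT549 EV libraries and at 810 to 1131 in MDA-MB-231 and SUM159, while CTSZ is lowest in BT549 EV.

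Across the 6 groups the order of levels differed from gene to gene. For CTSL it ran BT549 EV, BT549 OE, SUM159 EV, MDA-MB-231 KD, MDA-MB-231 EV and SUM159 KD, and only the MDA-MB-231 KD and EV libraries overlapped as neighbours. CTSB ran in the order BT549 EV, BT549 OE, SUM159 KD, SUM159 EV, MDA-MB-231 KD and MDA-MB-231 EV with no overlap between neighbours. CTSD and CTSZ also had no overlapping neighbours, but CTSZ ran SUM159 KD, BT549 OE, SUM159 EV, MDA-MB-231 KD, MDA-MB-231 EV and BT549 EV. CTSC, the dipeptidyl peptidase that activates granule proteases, had the smallest ratio of highest to lowest mean, from 2052 in MDA-MB-231 KD to 3938 in SUM159 KD, with no overlap. CST3 overlapped only between BT549 OE and MDA-MB-231 EV, its lowest groups, and CSTB only between MDA-MB-231 EV and KD. CTSV overlapped between MDA-MB-231 KD and BT549 EV, its highest groups. CTSK overlapped between BT549 EV and OE, and CTSS between BT549 EV and MDA-MB-231 KD and again between BT549 OE and SUM159 KD.

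PGF (Pearson r = 0.9985 over 6 group means) and DIO3 (0.9981) were among the 3 genes whose group means on the log2 CPM scale tracked CTSL most closely, of 12590 ranked. The groups fall into BT549 and the rest, and the values of r rest on that contrast. DIO3, for example, was at 0 in all MDA-MB-231 and SUM159 groups, where a missing value was also counted as 0. It was at 1740 in BT549 EV and at 134 in BT549 OE. Among the 10 genes, CTSB (r = 0.95) and CSTB (0.89) lay nearest to CTSL, and CTSZ had the lowest value (-0.38).

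TRMT112 overexpression in BT549 was accompanied by lower polysome levels of 8 of the 10 genes and a higher level of CTSZ. In all, 9 of 10 passed an adjusted p of 0.05 in edgeR's quasi-likelihood fit of all genes, where 70.6% of the 16538 genes tested did, and 7 of 10 also changed by at least 1 on the log2 scale, where 31.3% of all genes did. The libraries of the groups did not overlap for 9 of 10, against 82.7% of all genes. The median log2 fold change was -1.56 over the 10 genes and 0.02 over all genes. Because the genes were picked with this comparison in view, nothing is read from these shares.

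CSTB and CTSL fell furthest among the abundant genes. CSTB went from 25502 and 25291 in EV to 2980 and 2814 in OE, a log2 fold change of -3.13 ± 0.04 (SE), or 8.77-fold. CTSL went from 133407 and 131646 to 17060 and 16644 (-2.98 ± 0.03, 7.86-fold). In both genes the OE libraries remained above every MDA-MB-231 and SUM159 library. CTSB went from 563397 and 568862 to 302508 and 293996 (-0.92 ± 0.02), and its rank by TPM moved from 1 to 4.

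CTSD went from 38758 and 37054 to 11898 and 11095 (-1.72 ± 0.03). CST3 went from 8100 and 7803 to 3156 and 2874 (-1.40 ± 0.04), and CTSC from 3600 and 3509 to 2309 and 2322 (-0.62 ± 0.04). CTSV fell from 275 and 264 to 75.3 and 80.4 (-1.79 ± 0.16). In each of these the groups stood clear of each other. CTSS fell from 37.2 and 58.7 to 4.43 and 7.92 (-2.94 ± 0.52), which rests on 34 and 53 counts in the EV libraries and 4 and 7 in the OE libraries. CTSK did not pass (131 and 102 in EV, 76.4 and 105 in OE, -0.36 ± 0.24), and its groups overlapped.

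CTSZ went the other way, from 4737 and 4843 in EV to 13754 and 13199 in OE (1.49 ± 0.03, 2.81-fold). It thereby passed from position 6 to position 3 of the 10 genes by mean TPM in BT549.

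CTSL and CTSV share letters, and a counting step could place reads of one on the other. The reference transcripts of the pair share a longest run of 40 bases, and 1.05% of the 31-base words of CTSL occur in CTSV, while the reads were 150 bases long. With CTSL at 492 to 515 times the TPM of CTSV in BT549 EV and 198 to 220 times in OE, CTSV is reported as uncertain in that line. The part of shared reads in its change was not tested.

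**Figure D2:**
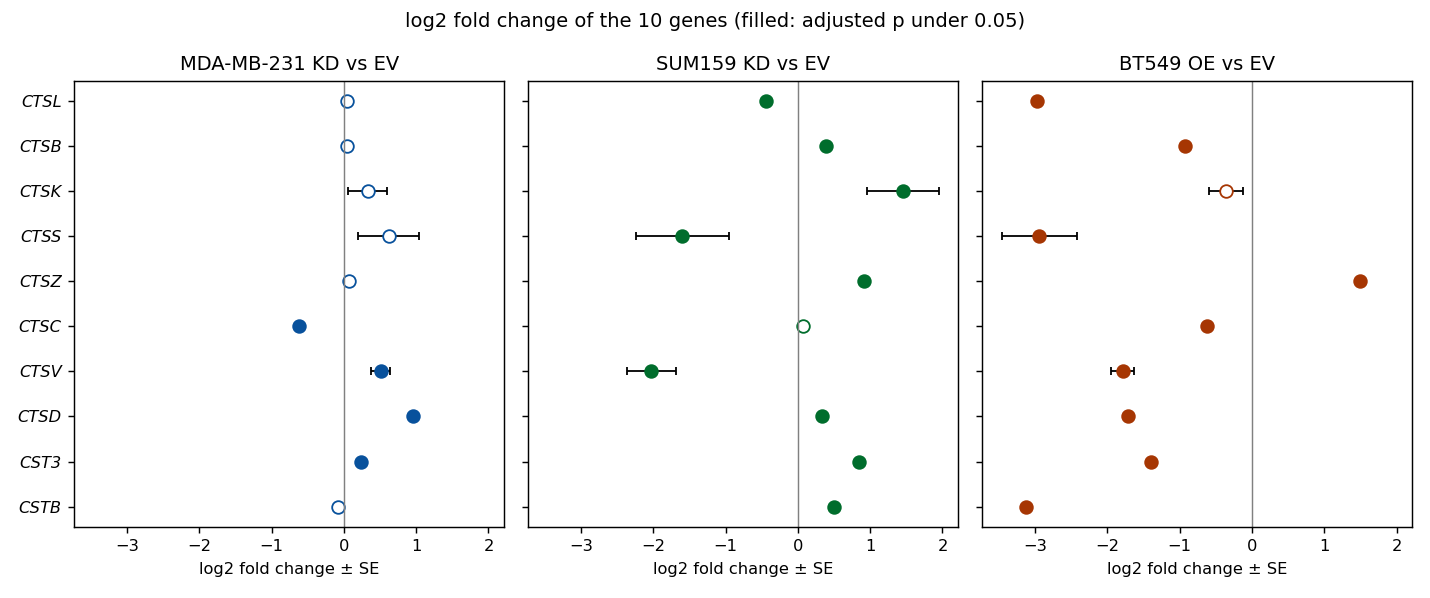
log2 fold change (KD or OE minus EV, ± SE from the edgeR fit, 2 libraries a group) of each gene in the 3 comparisons, filled where the adjusted p was under 0.05. In BT549, 8 filled points lie below 0 and CTSZ above it, while in SUM159, 6 lie above 0 and 3 below.

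Markers of other cell types moved in the same comparison. The 11 fibroblast markers summed to 2459 and 2468 CPM in BT549 EV and to 6751 to 6861 CPM in OE, with 8 higher and 1 lower, among them COL1A1 (75.7 to 2136 CPM) and THY1 (424 to 2552 CPM). VIM was at 1776 CPM in EV and 651 in OE. The 13 macrophage and osteoclast markers, 10 with a row, summed to 156 to 162 CPM in EV and 10.1 to 10.4 CPM in OE. CD68, itself a lysosomal membrane protein, was 158 CPM of that in EV and 6.25 CPM in OE, CD14 was at 0.495 and 3.36 CPM, and LYZ, ITGAM, CSF1R and CD163 were at or below 0.124 CPM in both groups of BT549. The 8 epithelial markers, 7 with a row, summed to no more than 3.69 CPM in BT549 and to at least 433 CPM in the other lines. Most of the sum in those lines was KRT8 and KRT18 (318 and 410 CPM in MDA-MB-231 EV). CDH1 (2.14 CPM in BT549 EV, 0.0853 in MDA-MB-231 EV) and KRT19 (0.599 and 0.151) went the other way. The part of these shifts in the protease changes was not tested.

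In SUM159, TRMT112 knockdown was accompanied by higher levels of both cystatins, CTSB, CTSZ, CTSD and CTSK, and lower levels of CTSL, CTSV and CTSS. In all, 9 of 10 passed, where 60.1% of all genes tested did, and 3 of 10 also changed by at least 1 on the log2 scale (15.7% of all genes). The libraries did not overlap for all 10, against 76.7% of all genes. The median log2 fold change was 0.36 over the 10 genes and 0.00 over all genes, and nothing is read from these shares. Of the 9 called, 6 were higher and 3 lower, and with DESeq2 7 were higher and 2 lower.

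CTSZ went from 12188 and 11700 in EV to 23211 and 22014 in KD (0.92 ± 0.03 SE). CST3 went from 5702 and 5743 to 10470 and 10074 (0.84 ± 0.04). CSTB went from 1639 and 1768 to 2423 and 2393 (0.50 ± 0.04). These were the largest rises among the abundant genes, and no library of one group reached the other. CTSB (9165 and 9080 in EV, 12031 and 11896 in KD, 0.39 ± 0.02) and CTSD (15924 and 15671 in EV, 20101 and 19707 in KD, 0.33 ± 0.03) rose less.

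CTSL fell from 1111 and 1131 to 849 and 810 (-0.44 ± 0.04). CTSV fell from 32.3 and 33.2 to 8.06 and 7.78 (-2.03 ± 0.34). CTSC, with 3783 and 3738 in EV against 3930 and 3946 in KD, did not pass (0.07 ± 0.04), although it passed with RLE size factors (0.12 ± 0.04). CTSS (11.1 and 12.1 in EV, 5.04 and 2.60 in KD, -1.60 ± 0.64) and CTSK (4.04 and 6.03 in EV, 14.1 and 13.8 in KD, 1.45 ± 0.50) passed at counts of 16 or fewer per library. Transcripts annotated as protein coding held only 0.2% and 0.0% of the CTSK counts in SUM159 EV and 7.1% and 20.2% in KD. The CTSK call was lost without EV replicate 1 (1.19 ± 0.61), and the CTSS call without EV replicate 1 (-1.66 ± 0.76), EV replicate 2 (-1.54 ± 0.78) or KD replicate 2 (-1.18 ± 0.77), and with DESeq2 (-1.57 ± 0.75).

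Markers moved in SUM159 too. The fibroblast list summed to 2381 to 2410 CPM in EV and 2242 to 2338 in KD, with 3 higher and 5 lower, among them THY1 (28.8 to 300.4 CPM) and COL3A1 (13.1 to 3.17 CPM). The epithelial list summed to 433 to 453 CPM in EV and 540 to 567 in KD, with 1 higher and 3 lower, KRT8 going from 214 to 361 CPM. The macrophage and osteoclast list summed to 30.1 to 32.2 CPM in EV and 23.9 to 25.1 in KD, with 2 lower. The part of these shifts in the protease changes was not tested.

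In MDA-MB-231, knockdown was accompanied by higher CTSD, CTSV and CST3 and lower CTSC. In all, 4 of 10 passed, where 37.7% of all genes did, and 0 of 10 changed by at least 1 on the log2 scale (3.20% of all genes). The libraries did not overlap for 8 of 10, against 66.0% of all genes, and the median log2 fold change was 0.15 over the 10 genes and 0.00 over all genes. Of the 4 called, 3 were higher. With no scaling beyond library size, 5 passed, 3 higher and 2 lower, CSTB being added at -0.17 ± 0.06.

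CTSD went from 4806 and 4661 in EV to 9007 and 9355 in KD (0.96 ± 0.03 SE, 1.94-fold), the largest change of the 10 in this line. CTSC fell from 3072 and 3223 to 1986 and 2118 (-0.62 ± 0.04). CST3 went from 2902 in both EV libraries to 3501 and 3302 (0.23 ± 0.04). CTSV, 210 and 206 with EV, reached 265 and 326 with KD (0.51 ± 0.13), and without KD replicate 2 it did not pass (0.36 ± 0.16).

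The remaining 6 genes did not pass in MDA-MB-231. CTSL had 996 and 1043 with EV against 1037 and 1053 with KD (0.04 ± 0.04), and CSTB 780 and 733 against 744 and 684 (-0.08 ± 0.06), with overlapping libraries in both. CTSB (0.05 ± 0.03) and CTSZ (0.07 ± 0.03) were a little higher in both KD libraries, and both passed with RLE size factors (0.07 ± 0.03 and 0.09 ± 0.03). With library size only, CTSL (-0.05 ± 0.04), CTSB (-0.04 ± 0.02) and CTSZ (-0.02 ± 0.03) turned direction and none of these passed, and mean TPM was lower with KD for CTSB (159 and 156) and CTSZ (351.0 and 345). CTSK had 43.3 and 42.9 with EV against 51.5 and 56.8 with KD, and CTSS 22.6 and 25.6 in EV and 30.0 and 44.3 in KD.

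In this line the fibroblast list summed to 1405 to 1442 CPM in EV and 1357 to 1375 in KD (1 higher), the epithelial list to 721 to 748 and 783 to 795 CPM (2 higher, 1 lower), and the macrophage and osteoclast list to 202 to 207 and 213 to 217 CPM (2 higher), and their part in the protease changes was not tested.

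Side by side, 3 genes (CTSV, CTSD and CST3) passed in all 3 comparisons when the transcripts of each gene were summed. For the single transcript with most counts over all 12 libraries, CTSV passed in none of them. It changed by 0.84 ± 0.47 in MDA-MB-231, -0.98 ± 0.60 in SUM159 and -1.15 ± 0.48 in BT549. CST3 then missed the threshold in MDA-MB-231 (0.20 ± 0.05). CTSV had 8 and 9 counts in the SUM159 KD libraries and is reported as uncertain in BT549. CST3 was higher in both knockdowns and lower with overexpression, and CTSD likewise, while CTSV was higher only in the MDA-MB-231 knockdown and lower in the other 2 comparisons. CTSZ was higher in SUM159 KD and in BT549 OE. The 3 comparisons share no control libraries. The difference between the MDA-MB-231 and SUM159 knockdown effects passed for 9 of the 10 genes, all but CTSK, where it passed for 50.9% of all genes, and nothing is read from this count.

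Levels per length were then summed over the cysteine cathepsins and over the cystatins that inhibit them. In the MDA-MB-231 libraries the 7 cysteine cathepsins summed to 721 and 737 TPM in EV and 666 and 663 in KD, against 404 and 396 TPM of cystatins in EV and 433 and 408 in KD. The EV ratios of the sums were 1.78 and 1.86, and the KD ratios 1.54 and 1.62. In SUM159 both sums were higher with KD, the cathepsins at 1184 and 1134 TPM in EV and 1680 and 1624 in KD, with EV ratios of 1.61 and 1.52 against KD ratios of 1.45 and 1.44. In BT549 the cathepsins summed to 23835 and 24105 TPM in EV and 10424 and 10385 in OE, while the cystatins went from 3420 and 3401 to 563 and 535. The ratio was therefore 6.97 and 7.09 in EV and 18.5 and 19.4 in OE, the highest of the 6 groups. These are ratios of mRNA on polysomes and not of protein.

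**Figure D3:**
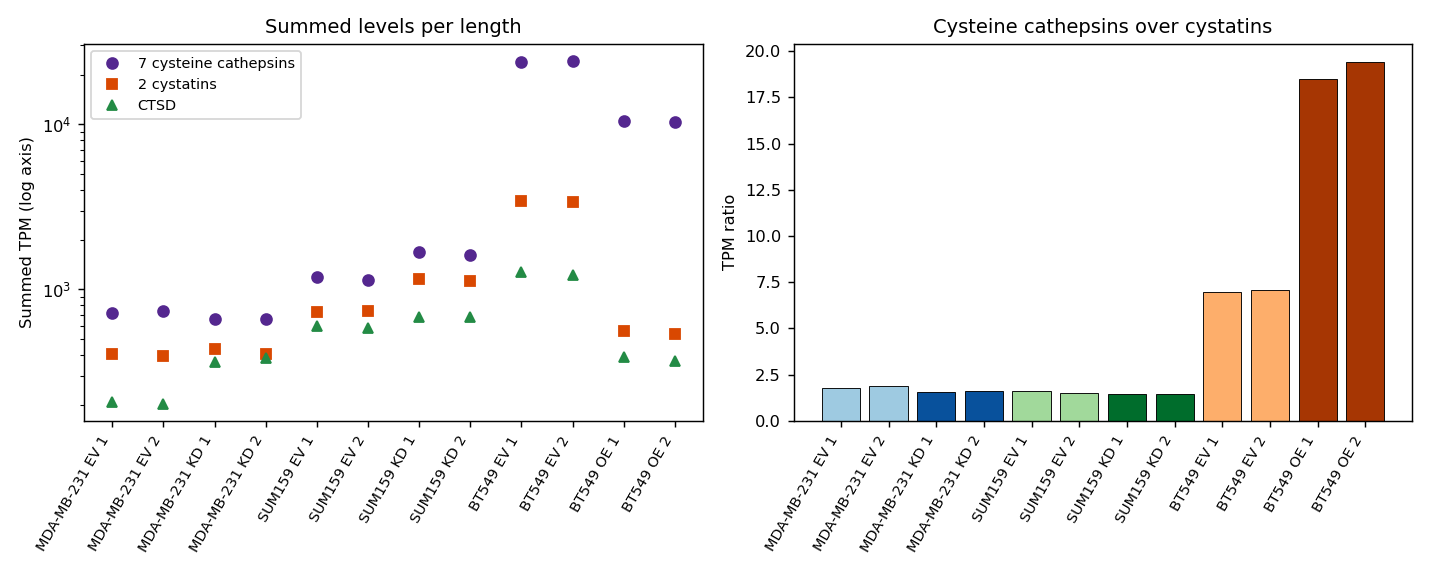
Left, summed TPM (log axis) of the 7 cysteine cathepsins, the 2 cystatins and CTSD in each library. Right, the ratio of the cathepsin to the cystatin sum in each library, which lies between 1.44 and 1.86 in MDA-MB-231 and SUM159 and reaches 18.5 and 19.4 in BT549 OE.

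The make-up of the sums also differed. CTSB was 21.8% to 26.7% of the cysteine cathepsin TPM in the MDA-MB-231 and SUM159 libraries, 74.9% and 75.3% in BT549 EV and 86.6% and 86.7% in BT549 OE. CSTB was 22.2% to 29.2% of the cystatin TPM in MDA-MB-231 and SUM159, 80.7% and 81.2% in BT549 EV and 55.2% and 55.9% in BT549 OE.

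The deposited values are estimates per annotated transcript, and the shares of the transcripts are described for CTSL, CTSC and CTSB, which had at least 842 counts in every library. The promoter window above is placed on a start that CTSL-203 and CTSL-202 share. CTSL-202 held between 2.47% and 19.6% of CTSL counts in the 12 libraries. CTSL-203 held 36.5% and 33.8% of CTSL counts in MDA-MB-231 EV and 22.7% and 24.3% in KD. It held 63.9% and 58.2% in SUM159 EV and 55.6% and 60.8% in KD. CTSL-242 starts upstream and has 620 bases before its coding start in place of 290, with the same coding exons of 999 bases. It held 21.9% and 35.0% in MDA-MB-231 EV and 39.5% and 30.8% in KD, so its groups overlapped. Tested singly, CTSL-203 was lower in MDA-MB-231 KD (-0.55 ± 0.05 SE) while the sum of CTSL was not (0.04 ± 0.04).

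CTSC-201, the full-length transcript with 1389 coding bases, held 33.1% and 33.1% of CTSC counts in SUM159 EV and 13.7% and 16.1% in KD. CTSC-203, annotated with 411 coding bases, went from 22.96% and 24.7% to 31.4% and 35.7%. Tested singly in SUM159, CTSC-201 changed by -1.09 ± 0.09, where the sum of all CTSC transcripts changed by 0.07 ± 0.04. In MDA-MB-231 CTSC-201 held 61.4% and 60.05% in EV and 65.0% and 66.1% in KD. In BT549 it held 59.1% and 55.2% in EV and 46.6% and 47.2% in OE. CTSC-203 there went from 5.29% and 6.47% in EV to 15.0% and 16.8% in OE.

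CTSB-204 held 32.1% and 30.9% in BT549 EV and 9.84% to 17.5% in the MDA-MB-231 and SUM159 libraries, and CTSB-225 the reverse, 7.25% and 7.40% in BT549 EV and 22.8% to 31.1% in those lines. CTSL, CTSZ, CTSD, CST3 and CSTB had at least 96.1% of their counts on transcripts annotated as protein coding in every library. CTSK had 0.0% to 45.9%, the rest being mostly annotated as retained introns, and CTSS 0.0% to 100.0% at its low counts. CTSV-208 held 16.1% and 51.3% of CTSV counts in SUM159 EV and 76.8% and 68.1% in KD, and 31.8% and 52.5% in BT549 EV and 61.5% and 67.6% in OE, with a wide spread between libraries of a group.

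**Figure D4:**
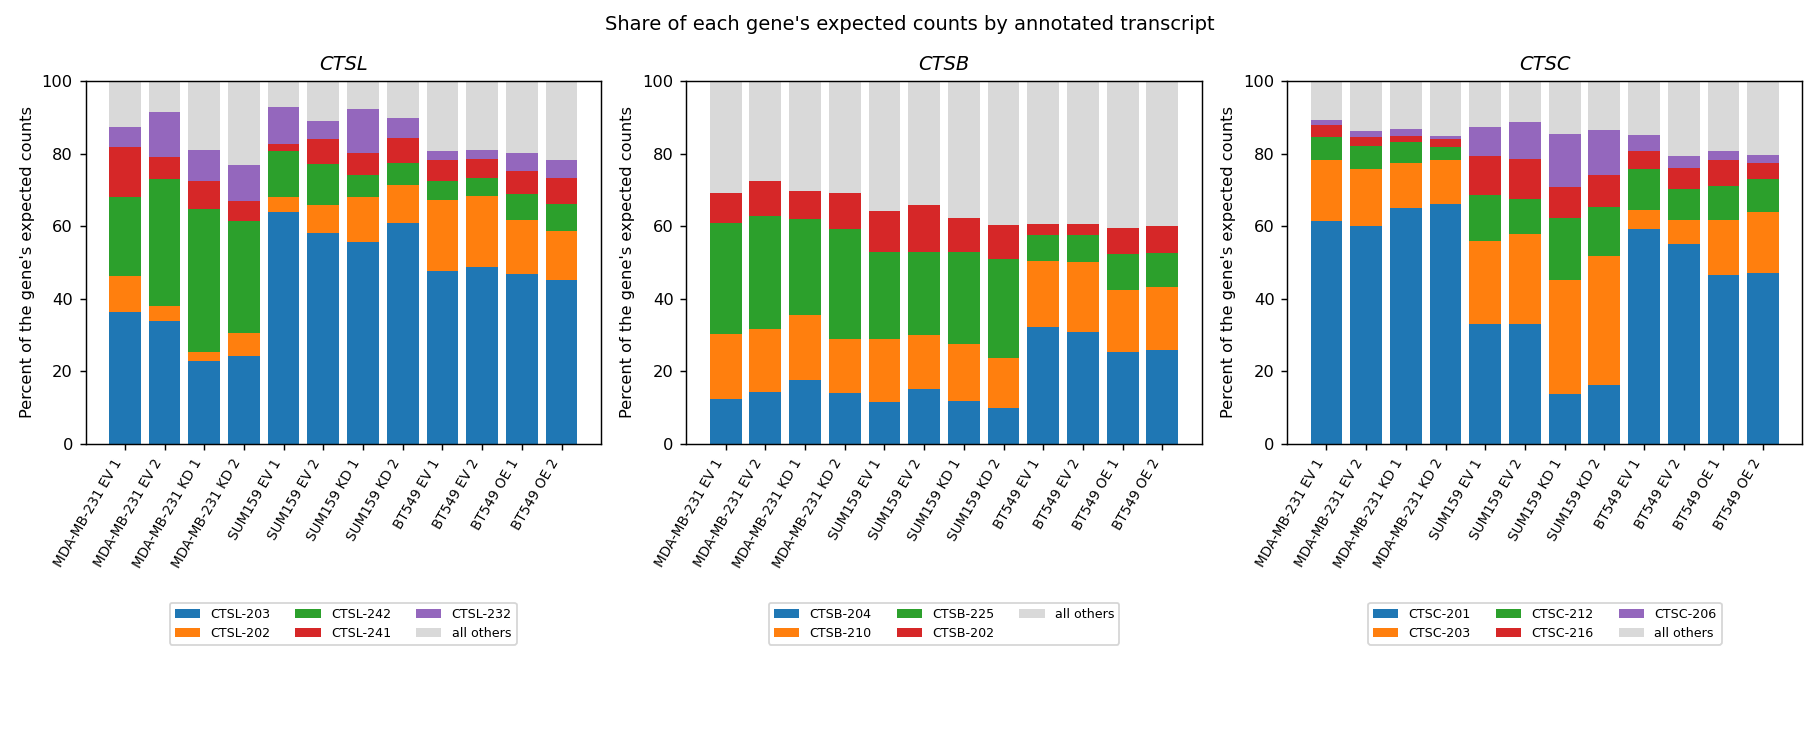
Percent of the expected counts of CTSL, CTSB and CTSC held by each annotated transcript that reached 10% in any library, with all others in grey, in each of the 12 libraries. CTSC-201 (blue) falls from 33.1% to 14.9% on average between SUM159 EV and KD.

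The other cathepsins and the machinery that sorts and activates these proteases were listed for comparison. Among all 16538 genes tested, 5887 were called higher and 5790 lower in BT549 OE (70.6% in all). For SUM159 KD these were 4733 and 5200 (60.1%), and for MDA-MB-231 KD 3505 and 2735 (37.7%). Of the 7 other cathepsins, 5 had rows. In BT549 OE, 4 of 5 fell: CTSO (1799 and 1678 in EV, 197 and 168 in OE, -3.25 ± 0.10 SE, adjusted p = 1.01e-18 by edgeR), CTSH (-2.31 ± 0.08, 2.94e-17), CTSF (-0.58 ± 0.06, 2.15e-08) and CTSA, the serine carboxypeptidase that protects neuraminidase (-0.39 ± 0.03, 1.38e-10). In SUM159 KD, CTSF rose (0.72 ± 0.10, adjusted p = 1.17e-06), and CTSH (-1.41 ± 0.12, 2.75e-10) and CTSO (-0.47 ± 0.11, 0.00116) fell. In MDA-MB-231 KD, CTSA (0.32 ± 0.04, adjusted p = 8.08e-07) and CTSF (0.69 ± 0.10, 9.97e-06) rose. CTSW had 21 or fewer normalised counts in every library.

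Of 19 other cystatins and serpins, 2 had rows. SERPINA3, a serpin that inhibits cathepsin G, was at 816 and 841 in SUM159 EV and at 2.02 and 6.05 in KD (-7.59 ± 0.29 SE, adjusted p = 2.21e-15 by edgeR), and at 0 in all 4 MDA-MB-231 libraries. CST6 had at most 4.53 normalised counts in any library.

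Of the 15 sorting and activation genes, 4 rose and 8 fell in BT549 OE, 8 rose and 5 fell in SUM159 KD, and 8 rose and 1 fell in MDA-MB-231 KD. M6PR, the cation-dependent mannose 6-phosphate receptor, fell in BT549 OE (-1.47 ± 0.03 SE, adjusted p = 1.92e-22 by edgeR) and rose in MDA-MB-231 KD (0.43 ± 0.03, 6.94e-11). GRN, the precursor of granulins, fell in BT549 OE (-1.63 ± 0.04, 2.61e-21), and GNPTG, a subunit of the enzyme that adds the mannose 6-phosphate tag, rose there (1.24 ± 0.05, 3.29e-16). The sorting receptor SORT1 rose in SUM159 KD (1.85 ± 0.04, 4.5e-20) and in MDA-MB-231 KD (0.52 ± 0.05, 8.06e-09). PSAP, the saposin precursor, fell in SUM159 KD (-0.91 ± 0.03, 1.47e-18) and rose in MDA-MB-231 KD (0.24 ± 0.03, 9.52e-08).

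Of the 38 lysosomal hydrolases tested, 8 rose and 26 fell in BT549 OE (median log2 fold change -0.37), 14 rose and 15 fell in SUM159 KD (-0.04), and 17 rose and 8 fell in MDA-MB-231 KD (0.12). NEU1, the lysosomal neuraminidase, fell in BT549 OE (13261 and 12916 to 2442 and 2253, -2.48 ± 0.04 SE, adjusted p = 6e-24) and rose in SUM159 KD (1.17 ± 0.06, 2.41e-14). DPP7 (-2.61 ± 0.05) also fell in BT549 OE, and GALNS (0.61 ± 0.06) rose in MDA-MB-231 KD.

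Of the 21 lysosomal membrane and lumen proteins, 6 rose and 14 fell in BT549 OE (median -0.73), 7 rose and 8 fell in SUM159 KD (-0.06), and 11 rose and 0 fell in MDA-MB-231 KD (0.12). CD63 fell in BT549 OE (-1.54 ± 0.03 SE) and rose in SUM159 KD (0.83 ± 0.03) and in MDA-MB-231 KD (0.32 ± 0.03). SCARB2, the receptor that carries glucocerebrosidase, fell in BT549 OE (-2.04 ± 0.05) and LAMP1 rose in MDA-MB-231 KD (0.42 ± 0.03). The lipid-binding proteins GM2A (1.27 ± 0.04) and NPC2 (1.19 ± 0.04) rose in SUM159 KD.

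The V-ATPase acidifies the lysosome, and of its 19 genes 7 rose and 7 fell in BT549 OE, 10 rose and 5 fell in SUM159 KD, and 9 rose and 4 fell in MDA-MB-231 KD. ATP6V0C rose in BT549 OE (0.75 ± 0.03 SE) and in SUM159 KD (0.67 ± 0.03). Of the MiT transcription factors, which drive lysosomal genes, 3 were tested. TFEB (-1.41 ± 0.16, adjusted p = 3.17e-08 by edgeR), MITF (-1.72 ± 0.17, 2.28e-09) and TFE3 (-0.88 ± 0.04, 4.06e-16) fell in BT549 OE. MITF (1.21 ± 0.13, 2.98e-08) and TFE3 (0.19 ± 0.03, 1.8e-05) rose in SUM159 KD. In MDA-MB-231 KD, TFEB (0.39 ± 0.12, 0.0142) and TFE3 (0.09 ± 0.03, 0.0385) passed, and TFEB lost its call without EV replicate 1 (0.38), EV replicate 2 (0.40) or KD replicate 1 (0.33), and TFE3 lost its call without any 1 of the 4 libraries (0.09 each). With library size only, TFE3 came to 0.00 and TFEB to 0.30, and neither passed. Of the 4 genes of the MHC class II route tested, 1 fell in BT549 OE, 2 rose in SUM159 KD and 1 fell in MDA-MB-231 KD. IFI30, a thiol reductase of that route, fell in BT549 OE (2453 and 2254 to 90.8 and 65.7, -4.91 ± 0.10, adjusted p = 9.08e-22), rose in SUM159 KD (1.11 ± 0.06, 5.2e-13) and fell in MDA-MB-231 KD (-0.44 ± 0.09, 0.000486).

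Over all 106 companion genes tested, 88 passed in BT549 OE (25 higher, 63 lower), 80 in SUM159 KD (44 higher, 36 lower) and 63 in MDA-MB-231 KD (49 higher, 14 lower), beside the 70.6%, 60.1% and 37.7% of all genes given above. The share of higher calls in MDA-MB-231 KD depended on the scaling: with library size only, 46 passed, 29 higher and 17 lower. Over all genes the higher calls then went from 3505 of 6240 to 2363 of 6445, and the median log2 fold change from 0 to -0.08.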

How the data were processed

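RNA from pooled polysome fractions was sequenced in 12 libraries. Per the paper's methods, the authors trimmed reads with Trimmomatic, aligned 150-base pairs to GRCh38 with HISAT2, removed duplicates with SAMtools and used DESeq2. The labels and the methods name different library kits. The counting tool, annotation and strand setting are not given in the sources used here. The values deposited by the authors are expected counts, one row per Ensembl transcript. In the MDA-MB-231 and SUM159 columns 5.08% of rows carry a question mark, counted as 0, and no transcript of the 10 genes has one. No transcript listed is at 0 in all BT549 libraries, so genes without a BT549 count are not analysed here.

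Transcripts were matched to GENCODE 44 without version (79.6%, holding 99.25% to 99.41% of counts), summed per symbol and rounded. Genes kept by filterByExpr were TMM-scaled and tested in edgeR 4.0.16 under R 4.3.3 (quasi-likelihood, 6 group means, 12 libraries, Benjamini-Hochberg adjusted p under 0.05). TPM used annotated transcript lengths. Promoters are RefSeq, GRCh38.p14. Alternatives were RLE or no scaling, DESeq2 1.42.0, other filters, each line alone, a replicate block, single transcripts and leaving out each library. Of larger companion lists, the 3 genes of smallest p per comparison with a mean of at least 50 counts are named, and a few genes that the naming rule selects are not reported here. Members and lists were chosen with earlier results of these data known.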

Additional observations from a re-analysis of the deposited data

Results flagged for a closer look

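The knockdown effect in MDA-MB-231 differed from that in SUM159, in the test of the difference itself within the edgeR fit (adjusted p under 0.05), for 9 of the 10 genes, where 50.9% of all genes tested differed. The genes were chosen with these results known, so the count is a description. The difference (log2 fold change in MDA-MB-231 minus that in SUM159, ± SE) was positive for CTSV (2.54 ± 0.36), CTSS (2.22 ± 0.77), CTSD (0.62 ± 0.05) and CTSL (0.47 ± 0.06). It was negative for CTSZ (-0.85 ± 0.05), CTSC (-0.68 ± 0.06), CST3 (-0.61 ± 0.06), CSTB (-0.58 ± 0.07) and CTSB (-0.34 ± 0.03). CTSV was higher in KD in MDA-MB-231 and lower in SUM159, with both effects past the threshold for the sum of its transcripts. For its transcript with most counts over all 12 libraries, the CTSV difference did not pass (1.81 ± 0.76). CTSS rests on few counts, and its difference lost the call without MDA-MB-231 KD replicate 2 (1.92 ± 0.84), SUM159 EV replicate 2 (2.16 ± 0.89) or SUM159 KD replicate 2 (1.80 ± 0.88). CTSK, at -1.12 ± 0.58, did not pass. The log2 fold change of TRMT112 itself was -1.23 with KD in MDA-MB-231 against -0.76 in SUM159, and its part in these differences was not tested.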

How the results depend on the processing

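The counts of called members, companion genes and all genes stayed within 1.5 times the reported count in all alternatives run. Members called ranged from 4 to 6 in MDA-MB-231, 9 to 10 in SUM159 and 8 to 9 in BT549, and from 7 to 9 in SUM159 and 8 to 9 for the KD difference when each library was left out in turn, with 4 and 9 throughout in MDA-MB-231 and BT549. Of 2138 single-gene values under alternatives, 2072 kept direction and side of the threshold, 28 lost the call, 12 gained it and 26 turned or came to 0. The transcript with most counts over all 12 libraries was also tested singly. It need not lead in each line: in SUM159 KD, CTSC-201 held 14.9% on average and CTSC-203 33.5%. In that setting CTSL turned to -0.55 in MDA-MB-231, CTSK to -1.61 and CTSC to -1.09 in SUM159. The KD difference turned to -0.03 for CTSL, 0.21 for CTSB, 2.63 for CTSK and 0.58 for CTSC. Calls were lost there for CTSV in all 3 comparisons, CST3 in MDA-MB-231, CTSB in SUM159, and CTSS in SUM159 and BT549. The KD difference lost its call for CTSS and CTSV. With library size only in MDA-MB-231, CTSL turned to -0.05, CTSB to -0.04 and CTSZ to -0.02, and TFE3 came to 0.00. In SUM159, TFEB turned to 0.01 with RLE size factors and with DESeq2, and CTSA to 0.05 with each of these, to 0.02 with a mean of at least 50 counts and to 0.00 with each line alone. When each library was left out in turn, values that turned ranged from -0.20 to 0.00 for MITF and from -0.09 to 0.03 for CTSH in MDA-MB-231, from -0.10 to 0.02 for TFEB and from -0.03 to 0.01 for CTSA in SUM159, and from -3.31 to 2.46 for CTSW and from -5.20 to 0.83 for SERPINA3 in BT549, the last with a call without OE replicate 2. SERPINA3 in MDA-MB-231, at 0 in all 4 libraries, stayed at 0.00. The replicate numbers are only names here: same-numbered libraries deviated with correlations of 0.00, -0.03 and 0.02. With the replicate number as a block, members called stayed at 4, 9 and 9, and all genes called went to 6165, 9814 and 11570. Low counts limit CTSK, CTSS and, in SUM159, CTSV, and the mean of at least 50 counts leaves out CTSS. The order of the 10 genes by mean level over all 12 libraries, in which BT549 weighs most, kept 7 positions when counts were not divided by length. Within groups it kept 4 in MDA-MB-231 EV, 5 in MDA-MB-231 KD, 4 in SUM159 EV, 5 in SUM159 KD, 8 in BT549 EV and 6 in BT549 OE.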
